A study of Homo sapiens with 9 samples.

Results

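The genes described here are 50 genes of G2 and mitosis, the last phases of the cell cycle, measured in HT-29 cells, an established line of human colorectal cancer epithelium. They were chosen by symbol from knowledge of the cell cycle, with earlier results of these data known. Each identifier was taken once, and all 50 were found among the 62710 genes of the count table. Messenger RNA was sequenced from wild-type HT-29 cells that were not stimulated, stimulated with flagellin, the protein of the bacterial flagellum that Toll-like receptor 5 detects, or stimulated with ADP-heptose, a bacterial sugar metabolite that the kinase ALPK1 detects. Each of the 3 groups had 3 libraries. Both ligands were used at 500 ng/mL and all cells were harvested after 2.5 h, by the methods of the study. The question asked here is whether the RNA of these genes differed between the groups.

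Genes of this class are switched on late in the cell cycle. Complexes of MuvB with B-MYB and FOXM1 activate them in dividing cells, and the DREAM complex, MuvB with the pocket proteins and E2F4, holds them down in arrested cells. Cyclins A and B with CDK1 drive entry into mitosis. Polo-like and Aurora kinases build the spindle, the kinetochores attach the chromosomes to it, the spindle checkpoint delays anaphase until that is done, and kinesins with anillin and ECT2 divide the cell.

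After ADP-heptose, 17 of the 50 genes were lower than in non-stimulated cells and 0 were higher, at an adjusted p below 0.05 in edgeR's quasi-likelihood test of all 17412 genes with enough counts. Of all genes tested, 4.42% were lower and 7.48% were higher by the same rule. The falls were modest, from 14.4% for PLK1 to 30.2% for KIF20A. No member fell by as much as 2-fold. Of all genes tested, 0.471% were lower by at least 2-fold and also at an adjusted p below 0.05. After flagellin, 0 members were lower and 0 were higher, where 0.0115% and 0.368% of all genes tested were. Values below are normalized counts, that is counts scaled to a common library size, and fold changes are on the log2 scale with their standard errors (SE). In bulk RNA, fewer cells in G2 and mitosis and less RNA of these genes per cell cannot be told apart.

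The libraries held 35040844 to 37537705 counts in non-stimulated cells, 30770448 to 38304035 after flagellin and 50054773 to 58272772 after ADP-heptose. The third ADP-heptose library stood apart from the other two of its group. The SD of its log2 differences from them was 0.378 and 0.383 over 12168 expressed genes, against 0.135 between those and 0.167 to 0.196 within the other groups. Its difference from them also fell with transcript length, with r = -0.541 and rho = -0.588 as a description across 12055 genes. Without it, the log2 fold changes of 5 of the 50 members after ADP-heptose turned sign and those of 22 moved by more than 1.5 times. These are given with and without it below. The labelled cell type was checked by markers. Of 12 epithelial markers, EPCAM, KRT8, KRT18, KRT19, KRT20 and LGALS4 were high in all 9 libraries, at 541 CPM (the count scaled to a fixed library total) or more each. CDH1, VIL1 and CLDN7 were at 104 to 194 CPM. CEACAM5 was at only 5.32 to 9.09 CPM, and the intestinal factors CDX1 and CDX2 had at most 12 and 48 counts. The summed level of the 12 epithelial markers was 9152 to 9441 CPM in non-stimulated cells, 9262 to 9562 CPM after flagellin, 9343 to 9391 CPM in the first 2 ADP-heptose libraries and 12093 CPM in the third. All 4 endothelial markers, 5 of 6 leukocyte markers and 5 of 6 fibroblast markers had at most 13 counts in any library. The exceptions were LYZ at 340 to 449 CPM and COL1A1 at 12.7 to 17.5 CPM. The labels number the replicates without saying that they were separate cultures. The paper describes the sequencing results of these cells as coming from 3 independent experiments. It does not say which libraries belong to the same experiment. The p-values measure the spread between these libraries.

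**Figure D1:**
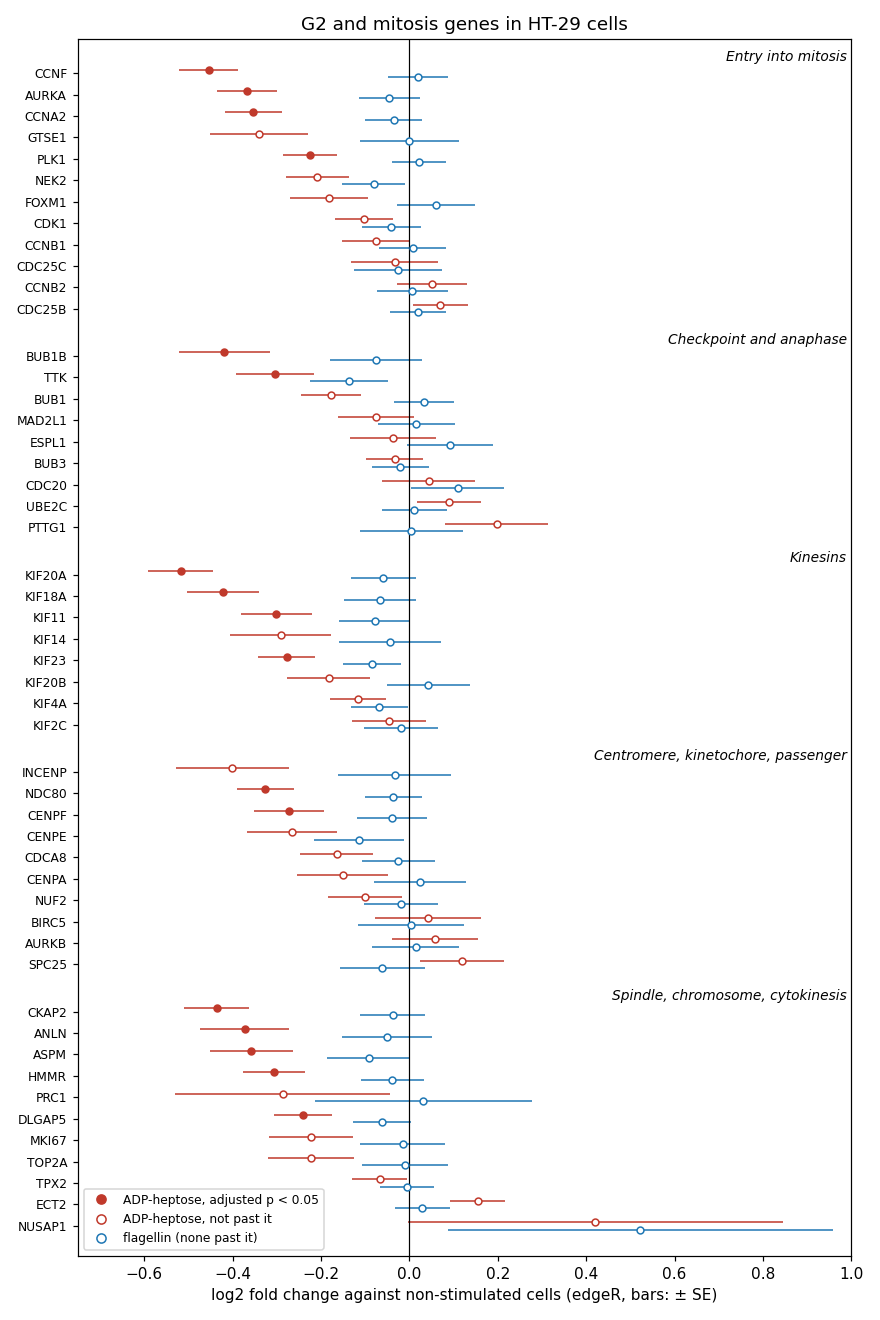
Log2 fold change of the 50 genes against non-stimulated cells (horizontal axis) by role, for ADP-heptose (red) and flagellin (blue), from the fit of 9 libraries. Points are estimates, bars are ± SE and filled points passed an adjusted p of 0.05. The 17 filled points lie between -0.52 and -0.22, and all are red.

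Of the proteins that drive entry into mitosis, 4 of 12 were lower after ADP-heptose, and the median log2 fold change of the 12 was -0.19. These were CCNF, AURKA, CCNA2 and PLK1, whereas the transcripts of the central pair CDK1 and cyclin B1 did not pass the test. CCNF (ENSG00000162063) encodes cyclin F, which serves a ubiquitin ligase in G2. Its normalized counts were 1560, 1526 and 1485 in non-stimulated cells, 1532, 1556 and 1545 after flagellin and 1128, 1082 and 1127 after ADP-heptose. The ADP-heptose libraries lay below the other 6 with a wide gap, and the fall was 27.0% (log2 fold change -0.45, SE 0.07, adjusted p = 6.2e-04). AURKA (ENSG00000087586), the Aurora kinase of the centrosomes, had 4618, 4575 and 4705 normalized counts in non-stimulated cells, 4473, 4198 and 4798 after flagellin and 3593, 3473 and 3707 after ADP-heptose (log2 fold change -0.37, SE 0.07, adjusted p = 0.0035). CCNA2 (ENSG00000145386), cyclin A of S phase and G2, had 4380, 4228 and 4349 normalized counts without stimulation, 4309, 4104 and 4230 after flagellin and 3549, 3378 and 3213 after ADP-heptose (log2 fold change -0.35, SE 0.06, adjusted p = 0.0031). For both genes all 3 ADP-heptose libraries were below the other 6. PLK1, the polo-like kinase of mitotic entry, had 5304, 5212 and 5255 normalized counts without stimulation, 5488, 5160 and 5361 after flagellin and 4455, 4388 and 4661 after ADP-heptose. Its groups did not overlap either, and it fell by 14.4%, the smallest of the 17 falls (log2 fold change -0.22, SE 0.06, adjusted p = 0.033).

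CCNB1 encodes cyclin B1. Per kilobase of exons, joined over all transcripts of a gene, it had the highest level of all 50 members in non-stimulated cells. It had 9157, 9985 and 9680 normalized counts in non-stimulated cells, 9526, 9656 and 9782 after flagellin and 8473, 8751 and 10115 after ADP-heptose. The first 2 ADP-heptose libraries lay below all 3 non-stimulated libraries and the third lay above them. Its log2 fold change was -0.08 (adjusted p = 0.56), and it was -0.15 (adjusted p = 0.016) without the third library. CDK1, the kinase that cyclin B1 activates, had 5224, 5788 and 5188 normalized counts without stimulation, 5182, 5168 and 5401 after flagellin and 4938, 5023 and 5124 after ADP-heptose. Its ADP-heptose libraries lay just below the other 6, by less than the spread among the non-stimulated libraries (log2 fold change -0.10, adjusted p = 0.36). FOXM1, the transcription factor that activates many of the other members, had 4737, 4195 and 4942 normalized counts without stimulation, 5071, 4697 and 4707 after flagellin and 4310, 4308 and 3616 after ADP-heptose. Its ADP-heptose and non-stimulated values overlapped (log2 fold change -0.18, SE 0.09, adjusted p = 0.23). Of the remaining entry genes, GTSE1, which restrains p53 in G2, was at -0.34 (adjusted p = 0.072), the centrosome kinase NEK2 at -0.21 (adjusted p = 0.086), CDC25C at -0.03, CCNB2 at 0.05 and CDC25B at 0.07. CDC25B and CDC25C are the phosphatases that release CDK1 from inhibition. GTSE1 and NEK2 were lower by the test without the third ADP-heptose library. Without it GTSE1 was at -0.20, FOXM1 at -0.10, CDC25C at -0.11, CDC25B at 0.03 and CCNB2, with its sign turned, at -0.05.

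**Figure D2:**
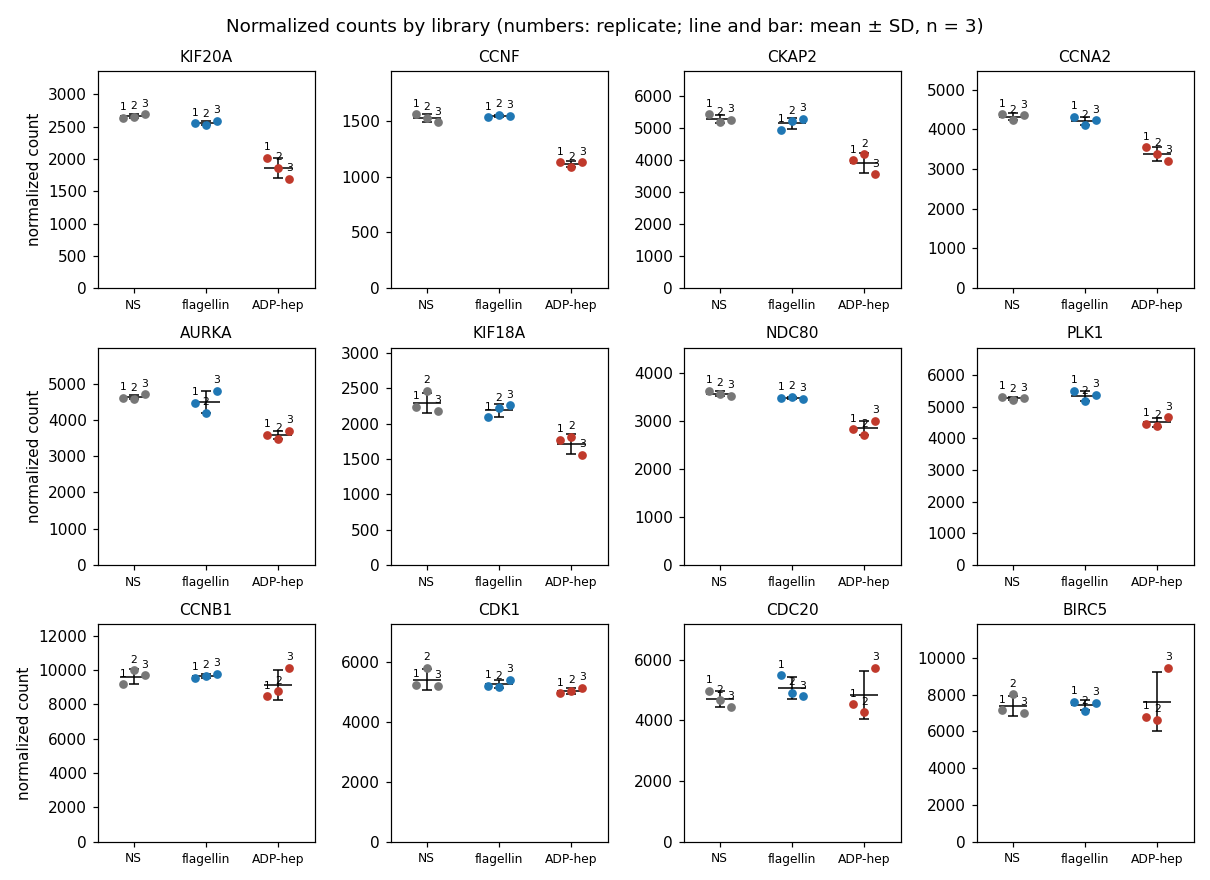
Normalized counts (vertical axes, from 0) of 12 of the genes in each of the 9 libraries. Points are libraries with their replicate numbers, and lines with bars are means ± SD of 3 libraries. In the first 8 panels all 3 ADP-heptose libraries lie below the 6 others. In the panels of CCNB1, CDC20 and BIRC5 the third ADP-heptose library lies above the non-stimulated libraries.

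Among the 8 kinesins, motors that move along spindle microtubules, 4 were lower and all 8 estimates were below 0, with a median of -0.28. All 3 ADP-heptose libraries were below the non-stimulated libraries for 7 of the 8, where 14.7% of all genes tested behaved so. KIF20A (ENSG00000112984), a kinesin of the central spindle and cytokinesis, had the largest fall of all 50 members. It had 2637, 2657 and 2693 normalized counts in non-stimulated cells, 2552, 2528 and 2589 after flagellin and 2015, 1866 and 1697 after ADP-heptose. The ADP-heptose libraries were more spread than the other groups, with the third lowest, and all lay far below, by 30.2% on average (log2 fold change -0.52, SE 0.07, adjusted p = 4.8e-04). KIF18A (ENSG00000121621), which damps the movements of chromosomes at the spindle equator, had 2236, 2463 and 2184 normalized counts without stimulation, 2091, 2221 and 2260 after flagellin and 1770, 1811 and 1559 after ADP-heptose (log2 fold change -0.42, SE 0.08, adjusted p = 0.0048). KIF23, the kinesin of the centralspindlin complex, had 5932, 6175 and 5967 normalized counts without stimulation, 5467, 5683 and 5899 after flagellin and 5136, 5079 and 4694 after ADP-heptose (log2 fold change -0.28, SE 0.07, adjusted p = 0.015). For KIF18A and KIF23 no ADP-heptose library reached the lowest of the other 6. The bipolar spindle motor KIF11 also fell (log2 fold change -0.30, adjusted p = 0.029). KIF14 at -0.29 (adjusted p = 0.13), KIF20B at -0.18, KIF4A at -0.12 and KIF2C at -0.05 did not pass. Without the third ADP-heptose library the same 4 kinesins were lower, the median of the 8 was -0.19, and KIF14 was at -0.15, KIF20B at -0.08 and KIF2C at -0.15.

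The spindle checkpoint and anaphase genes were divided. BUB1B and TTK, which encode the checkpoint kinases BUBR1 and MPS1, were lower, 2 of 9, and the median of the 9 was -0.04. BUB1B had 4704, 4524 and 4853 normalized counts without stimulation, 4383, 4330 and 4646 after flagellin and 3733, 3945 and 2855 after ADP-heptose. All 3 ADP-heptose libraries were lowest and the third lay well below the first 2 (log2 fold change -0.42, SE 0.10, adjusted p = 0.020). Without that library the log2 fold change was -0.29 (adjusted p = 7.2e-05). TTK was at -0.30 (SE 0.09, adjusted p = 0.044). Of the proteins that start anaphase, CDC20, an activator of the anaphase-promoting complex, had 4973, 4655 and 4446 normalized counts without stimulation, 5480, 4912 and 4789 after flagellin and 4521, 4263 and 5724 after ADP-heptose. Here the 3 groups overlapped, and the third ADP-heptose library was the highest of all 9 (log2 fold change 0.04, adjusted p = 0.83). When each library was adjusted for the length and GC content of its transcripts the sign turned, to -0.17 (adjusted p = 0.043). It also turned without the third library (-0.09, adjusted p = 0.32). The ubiquitin-conjugating enzyme UBE2C was at 0.09, securin, encoded by PTTG1, at 0.20, its target separase, encoded by ESPL1, at -0.04, BUB1 at -0.18, MAD2L1 at -0.08 and BUB3 at -0.03, and none of these passed. Without the third ADP-heptose library MAD2L1 was lower (-0.17, adjusted p = 0.023), ESPL1 was at 0.07, UBE2C at 0.04 and PTTG1 at 0.02, and the median of the 9 was -0.09.

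At the centromere and kinetochore, 2 of 10 genes were lower, with a median of -0.16. NDC80 (ENSG00000080986), the microtubule-binding subunit of the outer kinetochore, had 3616, 3556 and 3522 normalized counts without stimulation, 3480, 3491 and 3459 after flagellin and 2823, 2708 and 3002 after ADP-heptose. The ADP-heptose libraries lay below the 6 others, whose values spanned a narrow range (log2 fold change -0.33, SE 0.06, adjusted p = 0.0053). Its partners in the same complex did not pass, with NUF2 at -0.10 and SPC25 at 0.12. CENPF, a large protein of the outer kinetochore, fell (log2 fold change -0.27, adjusted p = 0.045), and the motor CENPE had a similar estimate that did not pass (-0.27, adjusted p = 0.13). Of the 4 subunits of the chromosomal passenger complex, INCENP was at -0.40 (adjusted p = 0.064) and CDCA8 at -0.16. AURKB, its kinase, had 2104, 2260 and 2147 normalized counts without stimulation, 2325, 2068 and 2182 after flagellin and 2065, 2078 and 2631 after ADP-heptose (log2 fold change 0.06, adjusted p = 0.75). BIRC5, which encodes survivin, had 7139, 8022 and 7007 normalized counts without stimulation, 7591, 7099 and 7546 after flagellin and 6783, 6612 and 9449 after ADP-heptose (log2 fold change 0.04, adjusted p = 0.85). In AURKB and BIRC5, as in CCNB1, CCNB2, MAD2L1 and KIF2C, the first 2 ADP-heptose libraries were below all 3 non-stimulated libraries and the third was above all of them. The first 2 were below in 21.6% of all genes tested. The share of all genes that also had the third above was not counted. CENPA, the histone variant of centromeres, was at -0.15 (adjusted p = 0.39). Without the third library INCENP (-0.23, adjusted p = 0.0011) and CENPA (-0.29, adjusted p = 3.5e-04) were lower. BIRC5 and AURKB then turned sign, to -0.14 (adjusted p = 0.065) and -0.06 (adjusted p = 0.57), and CENPE was at -0.16, CDCA8 at -0.08 and SPC25 at 0.06.

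Of 11 genes of the spindle, of chromosome structure and of cytokinesis, 5 were lower, with a median of -0.24. CKAP2 (ENSG00000136108), a protein of spindle microtubules, had 5442, 5188 and 5261 normalized counts without stimulation, 4959, 5216 and 5303 after flagellin and 3996, 4187 and 3558 after ADP-heptose, a fall of 26.1% (log2 fold change -0.44, SE 0.07, adjusted p = 0.0017). HMMR, which encodes a spindle-binding receptor of hyaluronan, had 2313, 2303 and 2361 normalized counts without stimulation, 2200, 2162 and 2430 after flagellin and 1822, 1952 and 1868 after ADP-heptose (log2 fold change -0.31, SE 0.07, adjusted p = 0.014). In both genes the ADP-heptose libraries lay below all others. Anillin, encoded by ANLN, fell by 0.37 on the log2 scale (adjusted p = 0.032), the spindle pole protein ASPM by 0.36 (adjusted p = 0.027) and the spindle assembly factor DLGAP5 by 0.24 (adjusted p = 0.033). MKI67, the proliferation marker Ki-67, had 31805, 26641 and 31300 normalized counts without stimulation, 28507, 29649 and 30656 after flagellin and 27533, 26963 and 22409 after ADP-heptose. The second non-stimulated library was low, so that the groups overlapped (log2 fold change -0.22, SE 0.10, adjusted p = 0.17). TOP2A, the topoisomerase that untangles sister chromatids, had 19275, 19221 and 18963 normalized counts without stimulation, 18117, 18974 and 19971 after flagellin and 17532, 18088 and 13616 after ADP-heptose. These did not overlap with the non-stimulated libraries, but the third ADP-heptose library accounted for most of the distance (log2 fold change -0.22, SE 0.10, adjusted p = 0.18; -0.10 without it). TPX2, which activates Aurora A on the spindle, was at -0.07. Without the third library the same 5 genes were lower and the median of the 11 was -0.13. ANLN was then at -0.24, MKI67 at -0.13 and TPX2 at -0.04.

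ECT2, the exchange factor that starts the cleavage furrow, was one of the 2 members with all 3 ADP-heptose libraries above the non-stimulated ones. It had 9934, 9869 and 9784 normalized counts without stimulation, 9904, 10290 and 9996 after flagellin and 11178, 11373 and 10381 after ADP-heptose. They were above the flagellin libraries as well, but the test was not passed (log2 fold change 0.15, SE 0.06, adjusted p = 0.14). Without the third ADP-heptose library ECT2 was higher (log2 fold change 0.20, adjusted p = 8.4e-04), and with the offsets it was too (0.20, adjusted p = 0.0036). The values of PRC1 (-0.29, and -0.11 without the third library) and NUSAP1 (0.42, the highest estimate of the 50, and 0.28 without it) cannot be read as the levels of these genes. They had only 51 to 114 and 7 to 26 counts per library, and the GENCODE annotation places a second protein-coding gene model on the same strand over most of each. CENPA also shares 16943 bases with SLC35F6 on the same strand.

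In all, 40 of the 50 estimates were below 0 after ADP-heptose, and their median was -0.20, against 0.01 for all genes tested. All 3 ADP-heptose libraries were below all 3 non-stimulated libraries for 29 members, the 17 lower ones included, where 14.7% of all genes tested behaved so. They were above for 2 members, CDC25B and ECT2, where the share of all genes was 15.4%. At an unadjusted p below 0.05, 25 members were lower and 1 was higher, where 11.5% and 13.4% of all genes tested were. Seen by library, the median of the members' log2 ratios to the non-stimulated mean was -0.16, -0.15 and -0.28 in the 3 ADP-heptose libraries, between -0.03 and 0.0016 in the flagellin libraries and between -0.0044 and -0.00044 in the non-stimulated libraries. The summed counts of the 50 genes were 0.667% to 0.683% of a library without stimulation, 0.651% to 0.675% after flagellin and 0.511% to 0.578% after ADP-heptose. These are shares of raw library totals, and part of the drop was common to all genes. Scaled by library totals, the median log2 fold change after ADP-heptose was -0.13 for all genes tested and -0.33 for the members.

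**Figure D3:**
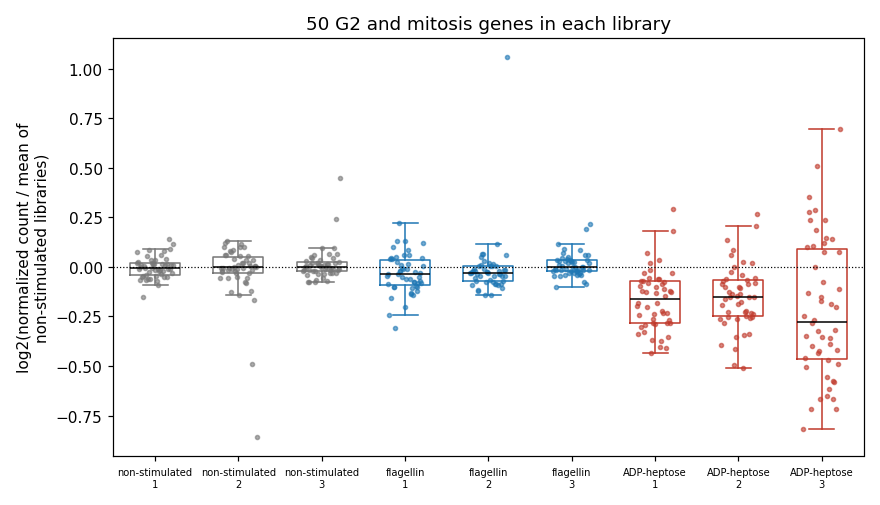
Log2 ratio of each of the 50 genes (points) to its mean in non-stimulated cells, for each of the 9 libraries. Boxes give the median and quartiles and whiskers reach to points within 1.5 times the box. The medians are -0.16, -0.15 and -0.28 after ADP-heptose, and the third ADP-heptose library has the widest spread.

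The third ADP-heptose library was the lowest of its group for 27 members and the highest for 21, and this went with transcript length. Such counts were not made for all genes. This library also stood apart over 12168 expressed genes, and its difference fell with length across 12055 genes (r = -0.541). In the 25 members whose longest transcript is above the median of 3.57 kb it was lowest for 20 and highest for 4, whereas in the 25 others it was lowest for 7 and highest for 17. Across the 50 genes, its difference from the first 2 libraries had r = -0.633 and rho = -0.684 with log2 transcript length, a description across genes that share libraries. The log2 fold change itself had r = -0.403 with length with this library and -0.125 without it. Without the library, 23 members were lower and 1 was higher, where 7.07% of all genes were lower and 2018 of 17966 were higher. With offsets for length and GC content 26 were lower and 1 was higher, where 9.33% of all genes were lower and 1463 of 17412 were higher. All 17 lower genes were lower in both of these fits. The members' median relative to that of all genes was smaller in size in them. It was -0.14 without the library and -0.13 with the offsets, against -0.20 in the fit of 9 libraries. The first 2 ADP-heptose libraries were both below all non-stimulated libraries for 36 of the 50 members, against 21.6% of all genes tested. What set the third library apart was not tested.

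**Figure D4:**
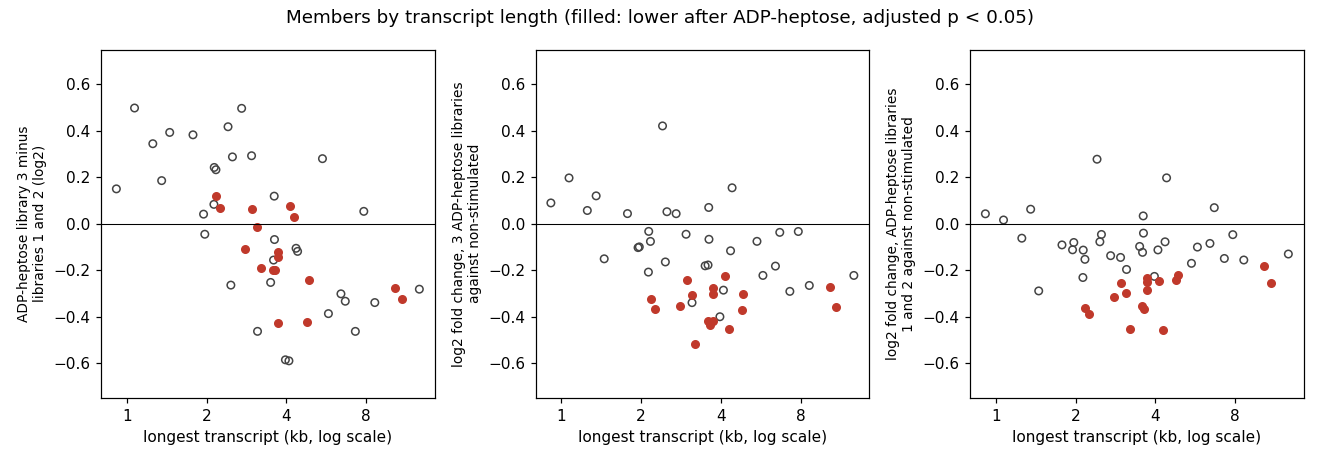
The 50 genes by the length of their longest transcript (horizontal axes, kb, log scale). The vertical axes give the log2 difference of the third ADP-heptose library from the first 2 (left), the log2 fold change with all 3 libraries (middle) and with the first 2 (right). Filled points are the 17 lower genes. Long transcripts lie lower in the left panel (r = -0.633), and the slope is nearly gone in the right panel (r = -0.125).

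Of the 17 lower genes, 7 passed the threshold in all 17 alternative fits: KIF20A, CCNF, CKAP2, CCNA2, AURKA, KIF18A and NDC80. Their largest adjusted p over those fits ranged from 0.0063 for KIF20A to 0.035 for NDC80. HMMR passed in 15 of the fits, BUB1B and KIF23 in 13, TTK, KIF11 and ASPM in 10, CENPF and ANLN in 9, and PLK1 and DLGAP5 in 7. Single libraries moved the count of 17 by more than 1.5 times: it was 7 without the first or without the third non-stimulated library, 10 without the second, 10 without the second flagellin library and 11 without the third. In these fits the shares of all genes that were lower were 2.27%, 2.18%, 2.72%, 3.28% and 3.36%.

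After flagellin the 50 genes stayed close to the non-stimulated level. At an adjusted p below 0.05, 0 were lower and 0 were higher by edgeR and by DESeq2, where edgeR called 0.0115% of all genes lower and 0.368% higher. At an unadjusted p below 0.05 the count was also 0, where 1.06% of all genes were lower and 2.73% higher, and the smallest p of a member was 0.15. The median log2 fold change was -0.02, and apart from PRC1 and NUSAP1 the estimates ran from -0.14 for TTK to 0.11 for CDC20. Their SEs were at most 0.13. All 3 flagellin libraries were below all non-stimulated libraries for 5 members, NDC80, NEK2, KIF20A, KIF23 and DLGAP5, against 5.19% of all genes. They were above for 0 members, against 7.66%. The log2 fold changes of the genes that fell most after ADP-heptose were -0.06 for KIF20A, 0.02 for CCNF, -0.04 for CKAP2 and -0.07 for KIF18A after flagellin. This comparison and that of ADP-heptose share the non-stimulated libraries.

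Setting ADP-heptose directly against flagellin tested the difference between the ligands. Here 9 members were lower after ADP-heptose, among 2.76% of all genes tested, and 0 were higher, among 5.4%. They were CCNF (log2 difference -0.47, SE 0.07, adjusted p = 5.8e-04), KIF20A (-0.46, adjusted p = 0.0016), CKAP2 (-0.40, adjusted p = 0.0040), KIF18A (-0.35, adjusted p = 0.017), AURKA (-0.32, adjusted p = 0.010), CCNA2 (-0.32, adjusted p = 0.0080), NDC80 (-0.29, adjusted p = 0.014), HMMR (-0.27, adjusted p = 0.038) and PLK1 (-0.25, adjusted p = 0.027). All 9 are among the 17 above, which the shared ADP-heptose libraries bear on. The other 8 of the 17, BUB1B, ASPM, KIF11, ANLN, DLGAP5, TTK, KIF23 and CENPF, were not shown to differ between the ligands. Their estimates were between -0.34 for BUB1B and -0.17 for TTK. The median of the 50 members was -0.18 and that of all genes was 0.01. All 3 ADP-heptose libraries lay below all 3 flagellin libraries for 23 members (12.8% of all genes) and above them for 2, SPC25 and ECT2 (14.2%). They lay below both other groups for 21 members (8.74%). CCNF, KIF20A and CKAP2 passed in every alternative fit. The count of 9 was 21 without the third ADP-heptose library (5.14% of all genes lower), 5 without the first (1.48%) or the second (1.29%) flagellin library and 3 without the third (1.38%).

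Many promoters of G2 and mitosis genes carry a CHR element, the site that MuvB complexes bind, and a CCAAT box, the site of NF-Y. RefSeq promoters of assembly GRCh38.p14, from 250 bases before to 50 after the start, were matched for 43 of the 50 genes, all but AURKA, BIRC5, BUB3, FOXM1, TPX2, TTK and UBE2C. Those of 4 lower genes and of CCNB2, which did not pass, are printed 5′ to 3′ to show how the elements lie. Capitals mark CHR elements (TTTGAA or TTCGAA) and CCAAT boxes, each read on both strands, so that TTCAAA and ATTGG are marked as well. The regions are chr5:138178862-138179161 on the plus strand for KIF20A, chr4:121823834-121824133 on the minus strand for CCNA2, chr11:28108107-28108406 on the minus strand for KIF18A, chr16:23678639-23678938 on the plus strand for PLK1 and chr15:59104896-59105195 on the plus strand for CCNB2.
KIF20A: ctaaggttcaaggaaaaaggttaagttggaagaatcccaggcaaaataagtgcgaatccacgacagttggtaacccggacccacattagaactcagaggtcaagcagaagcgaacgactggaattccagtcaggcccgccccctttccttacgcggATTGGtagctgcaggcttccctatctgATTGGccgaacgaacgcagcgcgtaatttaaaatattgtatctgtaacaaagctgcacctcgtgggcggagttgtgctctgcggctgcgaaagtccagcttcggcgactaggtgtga
CCNA2: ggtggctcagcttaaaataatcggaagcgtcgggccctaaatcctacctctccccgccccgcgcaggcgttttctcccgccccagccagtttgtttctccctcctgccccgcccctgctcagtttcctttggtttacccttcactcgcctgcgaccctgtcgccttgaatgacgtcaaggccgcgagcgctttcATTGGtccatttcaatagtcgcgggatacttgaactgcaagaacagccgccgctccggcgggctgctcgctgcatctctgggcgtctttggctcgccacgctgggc
KIF18A: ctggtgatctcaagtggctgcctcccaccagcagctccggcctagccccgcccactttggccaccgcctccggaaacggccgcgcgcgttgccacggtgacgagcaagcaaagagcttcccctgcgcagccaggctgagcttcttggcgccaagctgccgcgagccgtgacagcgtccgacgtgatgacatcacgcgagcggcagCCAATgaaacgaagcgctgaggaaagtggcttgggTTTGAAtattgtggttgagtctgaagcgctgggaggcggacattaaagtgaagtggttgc
PLK1: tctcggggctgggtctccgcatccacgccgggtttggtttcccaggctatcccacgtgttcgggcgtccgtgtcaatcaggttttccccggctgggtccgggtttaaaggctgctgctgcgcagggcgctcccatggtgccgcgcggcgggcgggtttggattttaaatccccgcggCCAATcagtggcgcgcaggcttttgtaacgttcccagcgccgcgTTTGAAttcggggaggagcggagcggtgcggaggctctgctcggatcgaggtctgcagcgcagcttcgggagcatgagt
CCNB2: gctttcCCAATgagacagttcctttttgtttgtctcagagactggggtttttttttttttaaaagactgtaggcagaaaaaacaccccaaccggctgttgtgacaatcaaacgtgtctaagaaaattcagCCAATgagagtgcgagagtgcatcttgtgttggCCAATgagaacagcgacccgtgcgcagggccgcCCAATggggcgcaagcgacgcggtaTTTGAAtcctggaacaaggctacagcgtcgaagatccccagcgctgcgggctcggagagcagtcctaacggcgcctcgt

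PLK1 and CCNB2 had a CHR at the same place, with its first base 29 bases before the start, and a CCAAT box further upstream. KIF18A had the pair in the same order, closer to the start. KIF20A and CCNA2 had CCAAT boxes and no match to these CHR letters in the window. Only TTTGAA and TTCGAA were searched for, so that a CHR spelled otherwise was missed and these genes cannot be said to lack one. Over the 43 promoters, 32 (74.4%) held such a CHR match, against 16.4% of the 35116 promoters of the table, and 34 (79.1%) held a CCAAT box, against 34.6%. Both were found in 28 (65.1%), against 6.38%. E2F core letters (TTGGCGC or else TTCCCGC or else TTCGCGC or else TTGCCGC on either strand) were found in 13 (30.2%), against 13% of all. A match to these CHR letters was found in 12 of the 15 lower genes with a promoter and in 20 of the 28 that did not pass, a CCAAT box in 11 and in 23 of them, and E2F letters in 3 and in 10. These shares were not tested against each other. These matches describe letters in a window and not binding.

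Further genes of the cell cycle were taken from 6 lists. Of all genes tested, 4.42% were lower and 7.48% higher after ADP-heptose in the fit of 9 libraries. Without the third ADP-heptose library 7.07% were lower, and 2018 of 17966 genes were higher. Among 16 genes that hold the cycle back, 6 were higher and 2 were lower after ADP-heptose. CDKN1A, which encodes the CDK inhibitor p21, had 2511, 2144 and 2493 normalized counts without stimulation, 3229, 2766 and 2912 after flagellin and 15089, 15357 and 16555 after ADP-heptose. Its ADP-heptose libraries were far above all others, by 6.57-fold against non-stimulated cells (log2 fold change 2.72, SE 0.09, adjusted p = 8.7e-10). PLK3 (1.98) and PLK2 (1.42), stress-responsive relatives of PLK1, rose as well, as did BTG2 (1.08), an antiproliferative gene, SFN (0.86), which encodes the 14-3-3 sigma protein of the G2 checkpoint, and GADD45A (0.54). The 2 lower genes were GADD45G (-0.83) and CDKN1B, which encodes p27 (-0.37, adjusted p = 0.0022). WEE1, the kinase that holds CDK1 inactive, was at -0.29 (adjusted p = 0.057), and GADD45B was at -0.13 (adjusted p = 0.64). Without the third ADP-heptose library the same 6 were higher, and WEE1 was lower beside the other two.

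Of 19 genes of MuvB, the pocket proteins and the E2F family, 4 were lower and 0 higher, with a median of -0.18. E2F8, a repressor among the E2Fs, had 1110, 884 and 1042 normalized counts without stimulation, 1008, 1124 and 1005 after flagellin and 618, 645 and 524 after ADP-heptose (log2 fold change -0.76, SE 0.11, adjusted p = 4.9e-04). E2F2 (-0.77, adjusted p = 0.019) and the MuvB subunits LIN9 (-0.35, adjusted p = 0.027) and LIN52 (-0.43, adjusted p = 0.045) were the others. MYBL2, which encodes the B-MYB partner of MuvB, was at 0.23 (adjusted p = 0.26) and E2F4 of the DREAM complex at 0.08 (adjusted p = 0.57). Without the third ADP-heptose library 5 of the 19 were lower and 1, E2F3, was higher. Of 18 genes of the anaphase-promoting complex and its regulators, 2 were lower: FBXO5, which encodes the inhibitor EMI1 (-0.36, adjusted p = 0.0060), and the subunit CDC27 (-0.27, adjusted p = 0.048). Its activator FZR1 was at 0.27 (adjusted p = 0.12), and the median of the 18 was 0.06. Without the third library 3 were lower, ANAPC4 with these, 1 was higher, UBE2D1, and the median was -0.04.

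Of 26 further kinetochore genes 1 was lower, CENPC, which anchors the kinetochore to centromeric chromatin (-0.63, adjusted p = 0.0010), and their median was -0.05. Without the third ADP-heptose library 4 were lower, CENPC, DSN1, NSL1 and SPC24, where 7.07% of all genes were lower. Of 17 condensin and cohesin genes 0 passed edgeR's test at an adjusted p below 0.05, 2 were lower at an unadjusted p below 0.05, which is close to the 11.5% of all genes, and 16 estimates were below 0 (median -0.14). Without the third library 1 of them, NCAPD2, was lower and the median was -0.02. Of 43 identifiers of S phase genes 5 were lower, CCNE2 (-0.89), ORC1 (-0.35), UHRF1 (-0.32), DBF4 (-0.31) and CDC7 (-0.27), and the median was -0.03. DBF4 and CDC7 encode the kinase that fires replication origins, and CCNE2 had at most 103 normalized counts in any library. Without the third library 7 were lower, and CCNE2 was not one of them. The 1 higher identifier was a second one under the symbol POLA2 (2.02), which had 239 normalized counts or fewer, whereas the main POLA2 gene was at 0.39 (adjusted p = 0.12). After flagellin, 0 genes of these 6 lists passed in either direction, where 0.0115% of all genes tested were lower and 0.368% higher.

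**Figure D5:**
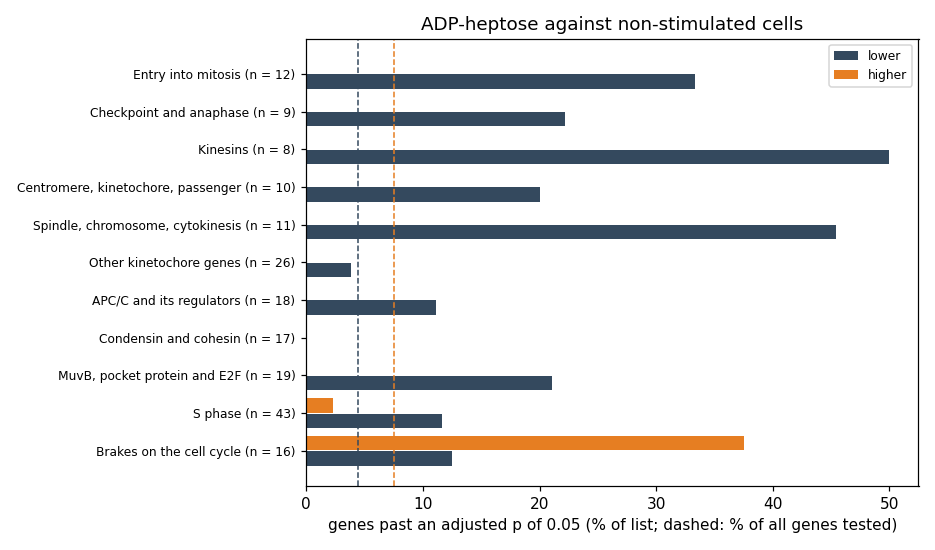
Share of each list that was lower (dark) or higher (orange) after ADP-heptose than in non-stimulated cells at an adjusted p below 0.05, in percent of the list (horizontal axis, from 0), with the number tested in brackets. Dashed lines are the shares of all genes tested, 4.42% lower and 7.48% higher. The first 5 rows are the 50 genes by role, and the list of genes that hold the cycle back (last row) has an orange bar of 37.5%.

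Reads that 2 genes share could move some of these values, since the sources used here do not say whether counting used strand. KIF20A, the member with the largest fall, overlaps BRD8 by 268 bases on the opposite strand, as in the overlaps that follow, and BRD8 was at -0.25 (adjusted p = 0.034). It also overlaps CDC23 by 68 bases, which was at -0.08. CCNA2 overlaps EXOSC9 by 578 bases, which was at -0.0045, KIF18A overlaps METTL15 by 61 bases (-0.06) and PLK1 overlaps ERN2 by 42 bases (-0.16, adjusted p = 0.30). The estimates of these partners were closer to 0 than those of the members. ANLN, also a lower gene, overlaps KIAA0895 by 320 bases, which was at 0.16 (adjusted p = 0.28). CDC25C, at -0.03, overlaps FAM53C by 6421 bases, and FAM53C had more counts than CDC25C and was higher (0.78, adjusted p = 2.8e-04). Counts listed under pseudogenes or near-identical copies of the members were at most 0.414% of the member's own, the value of KIF4B beside KIF4A.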

How the data were processed

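Poly(A) RNA of 9 HT-29 libraries (3 per group, by the treatment label) was sequenced as paired 150-base reads. The authors aligned the reads with HISAT2 and deposited raw counts per gene from featureCounts; versions, genome build, annotation and strand setting were not given in the sources used here. The table held 62972 lines; 232 identifiers listed more than once, with identical counts, were kept once, leaving 62710. Transcript lengths, GC content and overlaps came from GENCODE 29, which holds 92.9% of the identifiers.

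One model of the 3 groups was fitted to the counts of all 9 libraries (R 4.3.3; edgeR 4.0.16 with TMM scaling, its default filter on low counts and the robust quasi-likelihood test), with Benjamini-Hochberg adjustment over the 17412 genes tested and a threshold of 0.05. For display, counts were brought to one common library size with the TMM factors (normalized counts). The libraries held 30770448 to 58272772 counts, and the log2 fold changes of the members after ADP-heptose had SEs of 0.06 to 0.13, apart from PRC1 and NUSAP1. Alternatives were DESeq2 1.42.0 (its size factors, its test), library totals, no filter, a minimum mean of 10 counts, only the 6 libraries compared, a replicate block, offsets for length and GC content (spline, 4 df), a 2-fold threshold and each library left out. An exact permutation test of 3 against 3 libraries cannot go below p = 0.1 and was not used. Members and gene lists were chosen with earlier results of these data known. Values in every library are given for CCNB1, CDK1, PLK1, AURKA, AURKB, CDC20, FOXM1, MKI67, TOP2A, BIRC5 and the 10 members with the smallest adjusted p after ADP-heptose, and, chosen after their values were seen, for ECT2, CDKN1A and E2F8. Genes named as passing in the fit without the third ADP-heptose library, and partners in gene overlaps, were also chosen after their values were seen. Figures were drawn with matplotlib 3.10.9.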

Additional observations from a re-analysis of the deposited data

How the results depend on the processing

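Of the 50 members, 17 were lower after ADP-heptose than without stimulation. This count was 27 with library totals in place of TMM (10.8% of all genes lower) and 8 with only the 6 libraries compared (2.5%). With offsets for length and GC content it was 26 (9.33%). It was 0 with a 2-fold threshold as well (0.471%), and 7 to 23 when each library was left out. The count of higher members was 1 (ECT2) with the offsets and 0 to 1 with a library left out. Library totals turned the split of all genes called from 770 lower and 1302 higher to 1884 and 917, and moved the median of all genes to -0.13 and that of the members from -0.20 to -0.33, -0.20 relative to all genes; with a library left out the members' median was -0.23 to -0.15. For ADP-heptose against flagellin the count of 9 lower was 20 with library totals (6.11% of all genes lower) and 4 with 6 libraries (1.55%). It was 22 with the offsets (6.45%), 0 with the 2-fold threshold (0.287%) and 3 to 21 with a library left out. The count of higher members was 1 with the offsets and 0 to 1 with a library left out, and the median of -0.18 was -0.30 with library totals and -0.21 to -0.14 with a library left out. For flagellin against non-stimulated cells the median was -0.0411 to -0.0085 with a library left out, the lowest without the third flagellin library, and no member passed in any alternative run. Among genes with values given by library, 3 turned sign after ADP-heptose, under the same 3 alternatives: with library totals, with the offsets and without the third ADP-heptose library CDC20 (0.04) was at -0.0986, -0.17 and -0.0914, AURKB (0.06) at -0.084, -0.16 and -0.0624, and BIRC5 (0.04) at -0.10, -0.0527 and -0.14. With each library left out CDC20 reached up to 0.1167, AURKB up to 0.1061 and BIRC5 up to 0.1245. Same-numbered libraries deviated together with r = -0.379 to 0.222 and differently numbered ones with r = -0.378 to 0.43. This showed no pairing by number but cannot exclude one. The deviations were taken from means of 3 libraries, and the third ADP-heptose library stood apart from its group. With a replicate block 10 members were lower against non-stimulated cells (3% of all genes) and 7 against flagellin (1.88%). Of the single-gene values under the alternatives, 461 kept their direction and side of the threshold, 100 no longer passed, 8 passed newly in the same direction and 9 turned sign. The cause of these differences was not tested. Leaving out a library or using 6 leaves fewer samples, and what that did to the counts was not tested either. With 3 libraries a group and SEs of 0.06 to 0.13, many of the smaller differences could not be called.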
